A study of Oryza sativa with 4 samples.

Results

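A set of 108 rice genes had at least 2-fold less transcript after 36 h of chilling in the chilling-sensitive line 9311 and kept more of it in the chilling-tolerant line DC90. They were chosen from 15534 BGIOSGA identifiers whose FPKM (reads scaled to both the length of the gene and the total of the library) reached at least 10 in some library, out of 88509 identifiers in all. All ratios used for the choice were taken on the log2(FPKM + 1) scale. The response of a line is the difference between 36 h and 0 h on that scale. A member had a response of -1 or lower in 9311 and above -1 in DC90, responses that differed by at least 1 (DC90 minus 9311), and a line ratio (DC90 over 9311) under 1 in size at 0 h. These conditions used all 4 libraries, so every expression value of the members below is a description and carries no test.

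The 4 groups were DC90 seedlings after 36 h of chilling, DC90 seedlings before chilling (0 h), 9311 seedlings after 36 h and 9311 seedlings before chilling. DC90 is a chromosome substitution line, in which segments of a donor replace those of the recurrent parent, and 9311 (also named YD6) is that parent. Whole plants at the 3-leaf stage were taken, and RNA of 3 replicates was mixed in equal amounts, so that each group is 1 library. No value here therefore has a replicate error, and "higher" and "lower" describe these libraries. Because the later seedlings were all chilled, a change with age or hour of day cannot be told apart from one with chilling. A whole plant is a mixture of tissues, and fewer cells of a type and less RNA per cell cannot be told apart. The identifiers are not paired with gene names, sequences or chromosome positions in the sources used here, so the members have no stated functions and the tissue label was not checked against marker genes.

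Rice comes from warm climates, and chilling above the freezing point slows seedling growth, disturbs chloroplasts and can end in wilting and death of leaves. The level of a transcript is set by its synthesis and its decay, and a chilled plant changes both. Transcription factors of the CBF family and other early regulators raise protective transcripts, while many transcripts that serve growth and photosynthesis commonly decline. Indica varieties, to which 9311 belongs, are in general more sensitive to chilling than japonica varieties.

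Most genes that were lower after chilling in 9311 were lower in DC90 too. Of the 15534 identifiers, 2727 were at least 2-fold lower at 36 h in 9311, which is 17.6%. At least 2-fold lower in DC90 were 2331, or 15%. Both limits were passed by 1962 identifiers, and 765 passed it in 9311 but not in DC90. In 626 of these 765 the responses of the lines differed by less than 2-fold, which includes differences just under that limit. The other 139 differed by at least 2-fold, a difference that 2.65% of the 15534 identifiers showed in this direction. A further 31 were set aside because the lines already differed 2-fold at 0 h, with DC90 the lower line in 29 of them and the higher line in 2. That left the 108 members.

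**Figure D1:**
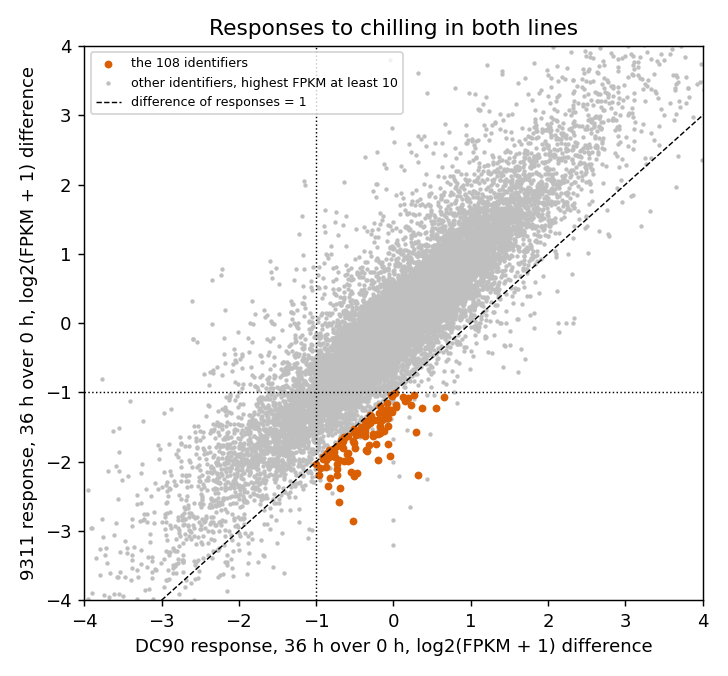
Response of each BGIOSGA identifier with a highest FPKM of at least 10 in DC90 (horizontal) and in 9311 (vertical), both as the log2(FPKM + 1) difference of 36 h and 0 h; 256 identifiers, none of them members, lie outside the axes. The 108 members (orange) lie below -1 in 9311, right of -1 in DC90 and below the dashed line where the responses differ by 1, at the edge of a cloud that runs along the diagonal.

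Transcript levels of the set were lower at 36 h than at 0 h in 9311 and, by less, mostly in DC90 too. The median FPKM over the 108 members was 16.5 in DC90 at 36 h and 21.3 in DC90 at 0 h, and it was 8.64 in 9311 at 36 h and 29.3 in 9311 at 0 h. The library of 9311 at 36 h was thus the low one, and it was the lowest of the 4 in all 108 members, against 33.2% of the 15534 identifiers. The library of 9311 at 0 h was the highest in 96 members, against 21.2% of all. At 36 h the members held a median of 75.1% of their 0 h FPKM in DC90 (range 43.7% to 158%) and 28.2% in 9311 (range 12.3% to 47.9%). The median response was -0.39 in DC90 and -1.64 in 9311 on the log2(FPKM + 1) scale, beside 0.06 in DC90 and 0.03 in 9311 over all 15534 identifiers. The median difference of responses was 1.21, with a range from 1.001 to 2.51. These figures follow from the conditions of choice and are no evidence for them.

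**Figure D2:**
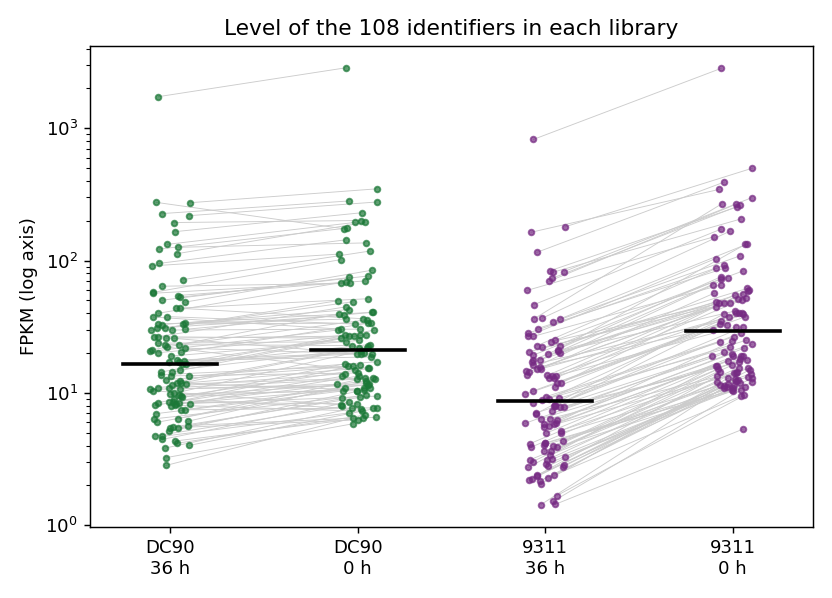
FPKM (log axis) of the 108 members in each library, 1 point per member, with grey lines joining 36 h and 0 h of a line and black bars at the medians of 16.5, 21.3, 8.64 and 29.3 from left to right. The lines slope more steeply in 9311, and a gap between the medians of DC90 and 9311 is seen at both times.

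Summed over the members, FPKM was 5583 in DC90 at 36 h and 7751 in DC90 at 0 h, and 2825 in 9311 at 36 h and 9381 in 9311 at 0 h. A large part of each sum belonged to BGIOSGA004351, the most abundant member. Without it the sums were 3851 and 4888 in DC90 at 36 h and 0 h, and 2001 and 6549 in 9311 at 36 h and 0 h. The order of the 4 libraries was the same with and without that gene. No member was below an FPKM of 1 in any library, against 0.77% to 1.09% of the 15534 identifiers by library. Some members were near that level, the lowest being BGIOSGA002686 with 1.43 FPKM and 5 reads in 9311 at 36 h. Below 5 FPKM were 9 of the 108 in DC90 at 36 h, against 5.36% of the 15534 identifiers, and 35 in 9311 at 36 h, against 5.86%.

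Most members shared 1 order of the libraries. In 84 of the 108 (77.8%) FPKM was highest in 9311 at 0 h, followed by DC90 at 0 h, DC90 at 36 h and 9311 at 36 h. This order was found in 12.0% of the 15534 identifiers. The conditions of choice put 9311 at 36 h lowest in every member and favour 9311 at 0 h as the highest. In 12 members DC90 at 36 h took the second place and DC90 at 0 h the third. DC90 at 36 h was highest in 2 members, against 26.4% of all identifiers, and DC90 at 0 h in 10, against 26.1%.

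The lowest response in 9311 belonged to BGIOSGA037479, a gene with a short coding length of 234 bases. It stood at 122 FPKM in DC90 at 36 h and 176 in DC90 at 0 h, and at 36.5 in 9311 at 36 h and 269 in 9311 at 0 h. Its responses were -0.52 in DC90 and -2.85 in 9311. In 9311 it kept 13.5% of its 0 h level, with a 95% counting interval of 10.8% to 16.8%, which covers counting error only. BGIOSGA009121 came next, at 71.8 and 118 FPKM in DC90 at 36 h and 0 h, and at 21.2 and 132 in 9311 at 36 h and 0 h. The lines had similar levels of this gene at 0 h, and at 36 h DC90 was 3.38-fold above 9311 (interval 2.91 to 3.94). BGIOSGA006902 stood at 14.4 and 26.7 FPKM in DC90 at 36 h and 0 h, and at 6.98 and 39.5 in 9311 at 36 h and 0 h. It was close to the 2-fold limit in DC90 as well, with a response of -0.85. BGIOSGA002686 had the third lowest response in 9311, -2.38, but it rested on 11 reads in DC90 at 36 h and 22 in DC90 at 0 h, and on 5 in 9311 at 36 h and 44 in 9311 at 0 h. Its remaining share was 55.3% in DC90 (interval 24.2% to 119%) and 12.3% in 9311 (interval 3.81% to 30.9%), and these intervals overlap. In all, 34 members kept under 25% of the 0 h level in 9311, and 15 kept under 20%. These counts were not made over all identifiers. A 9311 response of -2 or lower was found in 16 members (14.8%), against 5.09% of the 15534 identifiers. The choice required a lowered level in 9311.

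The difference of responses was widest in BGIOSGA016415, at 2.51. This gene had 10.4 FPKM in DC90 at 36 h and 8.12 in DC90 at 0 h, against 2.73 in 9311 at 36 h and 16.0 in 9311 at 0 h. The lines crossed, as in 97 of the 108 members: DC90 was the lower line before chilling and the higher line after it. The conditions of choice require DC90 to be the higher line at 36 h and favour a high 9311 value at 0 h. Crossing was not counted over all identifiers, and DC90 was the lower line at 0 h in 46% of them. By the difference of responses BGIOSGA037479 followed with 2.33, BGIOSGA009121 with 1.87 and BGIOSGA019378 with 1.87. BGIOSGA019378 stood at 194 and 201 FPKM in DC90 at 36 h and 0 h, and at 69.6 and 267 in 9311 at 36 h and 0 h. In DC90 it kept 96.5% of the 0 h level (interval 90.5% to 103%) and in 9311 26.1% (interval 23.9% to 28.4%). Such wide differences were few. In 15 members (13.9%) the responses differed by at least 1.5, against 0.61% of the 15534 identifiers. In 52 (48.1%) the difference was between 1 and 1.2, just past the limit, against 1.19% of all identifiers. The choice required a difference of at least 1.

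The set held 17 genes with at least 100 FPKM in 9311 at 0 h, which is 15.7% of it and near the 12.2% of all identifiers, while 42.6% of it lay between 20 and 100 and 41.7% under 20. BGIOSGA004351 had 1732 FPKM in DC90 at 36 h and 2864 in DC90 at 0 h, and 824 in 9311 at 36 h and 2832 in 9311 at 0 h. Both lines began at nearly the same level, and at 36 h DC90 kept 60.5% of it (interval 59.3% to 61.7%) and 9311 29.1% (interval 28.3% to 29.9%). BGIOSGA027612 stood at 274 and 349 FPKM in DC90 at 36 h and 0 h, and at 179.7 and 499 in 9311 at 36 h and 0 h. BGIOSGA012769 stood at 226 and 282 in DC90 at 36 h and 0 h, and at 115 and 392 in 9311 at 36 h and 0 h. In these 2 genes DC90 was the lower line at 0 h and the higher line at 36 h. The remaining share in 9311 had a median of 28.2% among the 17 abundant members, 32.2% among those from 20 to 100 FPKM and 25.7% among those under 20. These medians had no steady order over the levels.

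In DC90 the members ranged from higher FPKM after chilling to about 2-fold lower FPKM. A higher FPKM at 36 h than at 0 h in DC90 was found in 14 of the 108 members (13.0%), against 52.7% of all 15534 identifiers. None of the 14 reached 2-fold. With libraries rescaled to equal FPKM sums 25 of the 108 were higher in DC90 at 36 h. With median-of-ratios factors, which centre the ratios of well-measured genes, 11 were. BGIOSGA012309 had the highest response, 0.66, with 275 FPKM in DC90 at 36 h and 174 in DC90 at 0 h, against 164 in 9311 at 36 h and 345 in 9311 at 0 h. BGIOSGA010583 followed with 0.55, at 22.2 and 14.8 FPKM in DC90 at 36 h and 0 h, and at 8.84 and 22.1 in 9311 at 36 h and 0 h. BGIOSGA023108 had 25.8 and 19.8 FPKM in DC90 at 36 h and 0 h, and 13.0 and 31.5 in 9311 at 36 h and 0 h. In all 3 genes the 0 h level was higher in 9311 than in DC90, and the lines stood in the opposite order at 36 h. The same was found in 97 of the 108 members, and the conditions of choice favour it. The counting interval of the remaining share in DC90 was above 100% in each of these 3 genes. It ran from 143% to 176% for BGIOSGA012309, from 131% to 171% for BGIOSGA010583 and from 113% to 151% for BGIOSGA023108. In others of the 14 it included 100%, as from 43.5% to 281% for BGIOSGA008026 and from 87.2% to 118% for BGIOSGA029741.

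A response within 0.5 of 0 in DC90 was found in 58 members (53.7%), against 39.7% of all identifiers. Nearest to 0 among members with at least 20 FPKM in 9311 at 0 h was BGIOSGA034249. It stood at 33.3 FPKM in DC90 at 36 h and 33.7 in DC90 at 0 h, and at 20.6 in 9311 at 36 h and 51.9 in 9311 at 0 h. BGIOSGA015730 had 29.9 and 30.3 FPKM in DC90 at 36 h and 0 h, and 19.6 and 41.6 in 9311 at 36 h and 0 h. BGIOSGA029741 and BGIOSGA015773 had DC90 responses of 0.02 and 0.04, with responses of -1.02 and -1.20 in 9311. The DC90 level of these 4 genes lay between the 2 levels of 9311 at both times.

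The other 48 members (44.4%, against 13.2% of all identifiers) had DC90 responses between -1 and -0.5. Their median remaining share was 59.5% in DC90 and 23.2% in 9311. In the 46 members with DC90 responses between -0.5 and 0 these medians were 85.7% in DC90 and 33.5% in 9311, and in the 14 with positive DC90 responses they were 117% in DC90 and 42.5% in 9311. By these medians, members with more left in DC90 also had more left in 9311, an ordering that the required gap of 1 between the responses helps to set. Counting any size, 94 of the 108 had less FPKM at 36 h than at 0 h in DC90. This number was 83 with equal FPKM sums and 97 with median-of-ratios factors. That these genes were lowered in 9311 alone therefore holds for the 2-fold limit on the log2(FPKM + 1) scale and not for smaller differences. In FPKM without the pseudocount 5 members kept under 50% in DC90 too, with BGIOSGA032260 the lowest at 43.7%.

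The difference of responses is the line ratio at 36 h minus the line ratio at 0 h, and both parts contributed. The median line ratio was 0.82 at 36 h and -0.48 at 0 h. DC90 was above 9311 at 36 h in all 108 members, which the conditions on the responses and on the 0 h line ratio require. At 0 h DC90 was below 9311 in 97 members (89.8%), against 46% of all identifiers. The library of 9311 at 0 h enters both the 9311 response and the 0 h line ratio, so a high value in it moves both in the direction of choice. A line ratio of at least 1 at 36 h was reached by 36 members (33.3%), against 1.22% of all identifiers. The ratio at 0 h was larger in size than that at 36 h in 29 members (26.9%), against 43.7% of all identifiers.

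**Figure D3:**
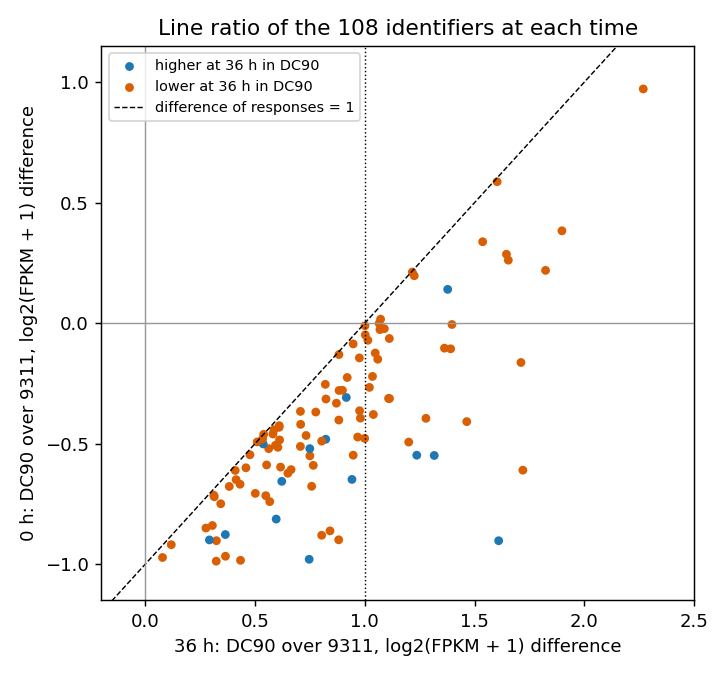
Line ratio (DC90 over 9311, log2(FPKM + 1) difference) of the 108 members at 36 h (horizontal) and at 0 h (vertical), blue where FPKM in DC90 was higher at 36 h than at 0 h and orange where it was lower. All points lie right of 0, 97 lie below 0, and 36 lie right of the dotted line at a line ratio of 1.

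By where the lines differed, the members fell into 4 classes, which were drawn after the values were seen. They rest on line ratios that the conditions of choice bear on, and they were not counted over all identifiers. In 32 members the line ratio, on the log2(FPKM + 1) scale, was at least 1 at 36 h and above -0.5 at 0 h. In 43 it was under 1 at 36 h and -0.5 or lower at 0 h. In 4 members it was at least 1 at 36 h and -0.5 or lower at 0 h, BGIOSGA016415, BGIOSGA037479, BGIOSGA034308 and BGIOSGA010583, and in 29 it was under 1 at 36 h and above -0.5 at 0 h. A narrower class, with its difference at 36 h, held 19 genes with a line ratio of at least 1 at 36 h and within 0.25 of 0 at 0 h. It included BGIOSGA004351 and BGIOSGA009121, given above, and also BGIOSGA030292, BGIOSGA033729 and BGIOSGA017899. BGIOSGA030292 stood at 133 and 194 FPKM in DC90 at 36 h and 0 h, and at 36.8 and 167 in 9311 at 36 h and 0 h. BGIOSGA033729 stood at 218 and 277 in DC90 at 36 h and 0 h, and at 82.7 and 298 in 9311 at 36 h and 0 h. DC90 was 3.61-fold above 9311 at 36 h in BGIOSGA030292 (interval 3.17 to 4.12) and 2.64-fold in BGIOSGA033729 (interval 2.39 to 2.93). BGIOSGA017899 was among the 3 members with the least FPKM in 9311 at 36 h, at 5.48 and 9.72 in DC90 at 36 h and 0 h, and at 1.52 and 10.5 in 9311 at 36 h and 0 h.

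Members at the other end differed mainly before chilling. BGIOSGA038193 stood at 9.92 FPKM in DC90 at 36 h and 20.8 in DC90 at 0 h, and at 9.06 in 9311 at 36 h and 40.3 in 9311 at 0 h. The lines were nearly level at 36 h, with a line ratio of 0.12, and DC90 was the lower at 0 h, with -0.92. BGIOSGA015726 had 17.7 and 20.1 FPKM in DC90 at 36 h and 0 h, and 13.5 and 40.2 in 9311 at 36 h and 0 h. It was near steady in DC90, and its 9311 value at 0 h stood apart from the other 3. Only 11 members had more FPKM in DC90 than in 9311 at 0 h. The largest such ratio was that of BGIOSGA019039, with 10.7 and 11.4 FPKM in DC90 at 36 h and 0 h, and 1.44 and 5.32 in 9311 at 36 h and 0 h. It rested on 4 reads in 9311 at 36 h and 16 in 9311 at 0 h, and its remaining share in 9311 had an interval of 6.58% to 83.9%.

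The libraries held 10580163 to 11800685 reads, recovered from the steps of the FPKM values, and the reads of a member had a median of 337.5 in its deepest library and 100 in its shallowest. The recovered reads and coding lengths are the smallest that give the values, so some can be too small and their intervals too wide. The 95% counting intervals of the remaining share lay apart, DC90 above 9311, in 96 of the 108 members, against 14.8% of the 15534 identifiers. The choice of members by the gap between these same values favours intervals that lie apart, so nothing is read from this count. They overlapped in 12, BGIOSGA002686, BGIOSGA019039, BGIOSGA038193, BGIOSGA008026 and BGIOSGA011540 among them. BGIOSGA008026, with the shortest coding length of 129 bases, rested on 11 reads in DC90 at 36 h and 11 in DC90 at 0 h, and on 9 in 9311 at 36 h and 22 in 9311 at 0 h. These intervals do not hold the variation between plants or between pools, which 1 library per group cannot show.

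**Figure D4:**
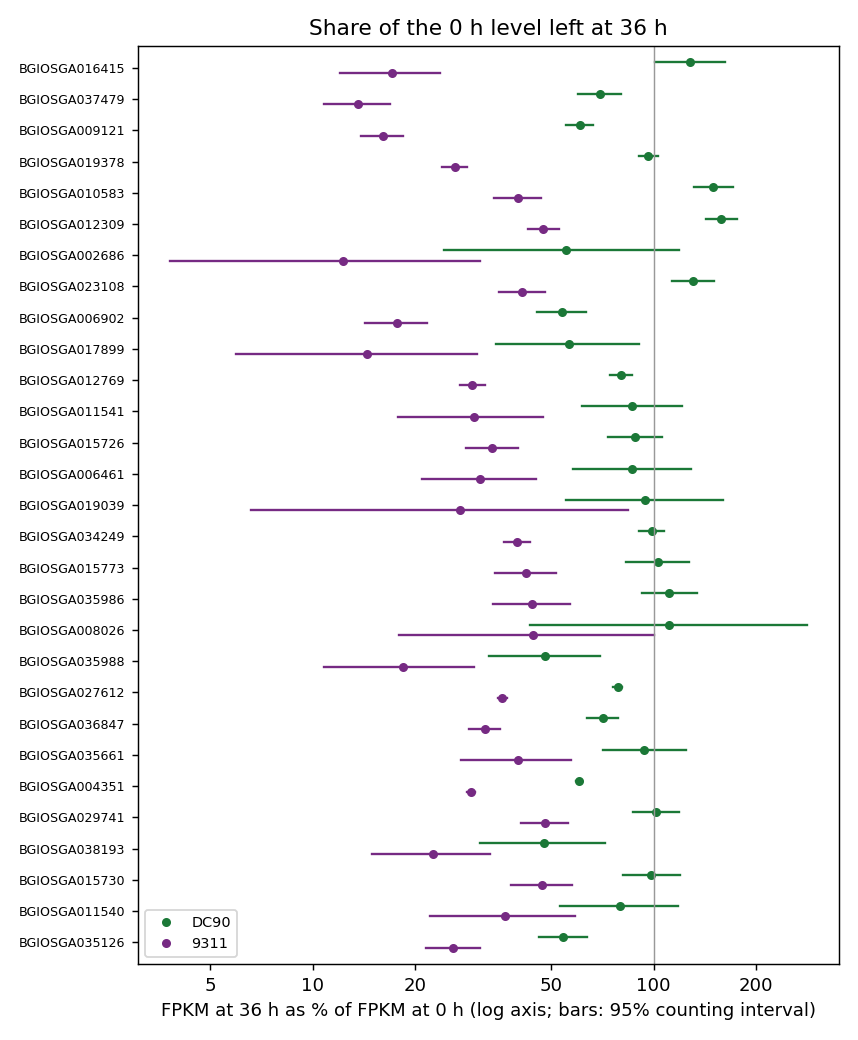
FPKM at 36 h as a percentage of FPKM at 0 h (log axis) in DC90 (green, upper of each pair) and in 9311 (purple, lower) for the 29 members picked by fixed rules, with 95% counting intervals, in order of the difference of responses from the top. DC90 lies right of 9311 in every gene drawn, as the choice of members requires, with shares from 47.6% in BGIOSGA038193 to 158% in BGIOSGA012309 for DC90 and from 12.3% in BGIOSGA002686 to 47.9% in BGIOSGA029741 for 9311, and the bars are wide for BGIOSGA002686, BGIOSGA019039 and BGIOSGA008026.

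Coding length and identifier number were not used to choose the members. The median coding length, as recovered from the values, was 930 bases in the members and 1008 over all 15534 identifiers, and the longest member was BGIOSGA036847 with 3390 bases. That gene stood at 16.5 and 23.2 FPKM in DC90 at 36 h and 0 h, and at 12.0 and 37.5 in 9311 at 36 h and 0 h. The members were spread over the identifier numbers from 109 to 38193, with a median gap of 287 between neighbours. In blocks of 2000 numbers with at least 100 of the 15534 identifiers, the members made up 0.102% to 1.73% of a block, against 0.695% in all. The fullest block, from 34000 to 35999, held 10 members among 579 identifiers. Whether number order follows chromosome order was not examined.

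**Figure D5:**
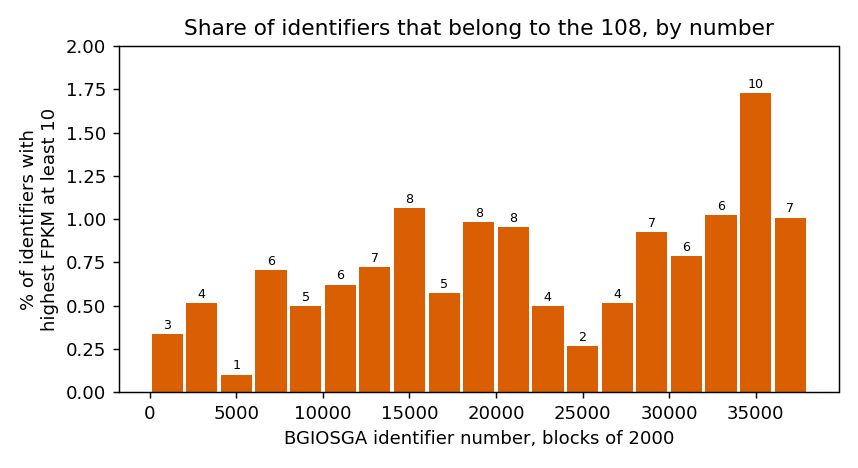
Members as a percentage of the BGIOSGA identifiers with a highest FPKM of at least 10, in blocks of 2000 identifier numbers, with the number of members above each bar; 2 blocks with fewer than 100 identifiers are not drawn. Each of the 19 blocks drawn holds at least 1 member, and the highest bar is 1.73%.

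Pairs of members within 5 numbers of each other were 5, holding 10 of the 108 genes, and no run was longer. BGIOSGA011540 and BGIOSGA011541 are consecutive. BGIOSGA011540 had 12.6 and 15.8 FPKM in DC90 at 36 h and 0 h, and 6.38 and 17.4 in 9311 at 36 h and 0 h. BGIOSGA011541 had 17.1 and 19.7 in DC90 at 36 h and 0 h, and 5.86 and 19.8 in 9311 at 36 h and 0 h. Their levels and coding lengths (345 and 360 bases) were similar, and without sequences it was not tested whether they share reads. The next pair, BGIOSGA035986 and BGIOSGA035988, was unlike: the DC90 response was 0.15 in BGIOSGA035986 and -0.95 in BGIOSGA035988. The pair of BGIOSGA015726 and BGIOSGA015730 had levels near 40 FPKM in 9311 at 0 h, 40.2 and 41.6. The block from BGIOSGA036041 to BGIOSGA037534 held 7 members among 520 identifiers, or 1.35%, including BGIOSGA037479. The block from BGIOSGA012710 to BGIOSGA013206 held BGIOSGA012769 and BGIOSGA013093 among 162 identifiers, or 1.23%, and that from BGIOSGA010224 to BGIOSGA010354 held none among 39. The bounds of these blocks are those of other parts of the series. Over all 15534 identifiers the share was 0.695%, and the shares of the blocks rest on few members.

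The limits of the set cut through a continuous range. Just inside and just outside the limit on the DC90 response were BGIOSGA038193 at -0.9991 and BGIOSGA019997, which is no member, at -1.0015. The last member by the difference of responses was BGIOSGA035126 at 1.001, and BGIOSGA005885 stayed outside at 0.9994. By the 9311 response BGIOSGA029741 was inside at -1.016 and BGIOSGA000569 outside at -0.928. BGIOSGA035661 was inside with a highest FPKM of 10.4, and BGIOSGA030418 outside with 9.97. BGIOSGA006461 was inside with a line ratio of -0.988 at 0 h, and BGIOSGA008356 outside with -1.001. A further 141 BGIOSGA identifiers met every condition except the FPKM of at least 10.

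The same conditions with lines exchanged gave 80 genes lowered in DC90 alone, and with the sign of the response turned they gave 157 genes raised in 9311 alone. With median-of-ratios factors the members and the genes lowered in DC90 alone were equal in number, at 93 each, and with equal FPKM sums they were 135 and 61. By the medians at 0 h, the line with the lowered genes began higher than the other line in both lowered sets, and 9311 began lower in the raised set. The median line ratio at 0 h was -0.48 in the 108 members, 0.46 in the 80 genes and 0.35 in the 157 genes. The 0 h library of the responding line enters both its response and this ratio, so the choice of each set favours these directions. At 36 h the line ratio was at least 1 in size in 36 of the 108 members, in 43 of the 80 genes and in 86 of the 157 genes. With 1 library per group these counts are given side by side and their difference was not tested.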

How the data were processed

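RNA of whole seedlings was sequenced after TRIZOL isolation, mixing of 3 replicates per group and library preparation from 3 µg with a NEBNext Ultra RNA kit, per the labels' protocols. The authors deposited 1 table of FPKM values; the submitters' processing notes name HTSeq 0.6.1. Aligner, genome build and annotation are not stated in these sources. Titles linked columns to samples, and 0 columns were left unused. None of the identifiers was found in the RefSeq gene table of assembly ASM3414082v1.

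The members and lists were chosen with earlier results of these data known. With 1 library per group no model was fitted and no p-value computed. Library totals, coding lengths and reads were recovered from the steps of the FPKM values as the smallest whole numbers within 1e-06 reads; where reads and length shared a factor, both are too small and intervals too wide. They served for depth and for exact Clopper-Pearson counting intervals at 95%, which cover counting error only. A length was found for 100% of the identifiers above 0, the reads summed to 97.6% to 97.7% of each total, and 98.8% of the BGIOSGA lengths were multiples of 3, hence coding length. The scripts were tested on simulated data that held counting error only and no variation between pools.

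Genes were named by extremes: the highest difference of responses, lowest 9311 response, highest FPKM in 9311 at 0 h, highest DC90 response, DC90 response nearest 0, lowest FPKM in 9311 at 36 h, closest pairs by number, coding length, fewest reads, and nearest to each limit. BGIOSGA034308, BGIOSGA030292, BGIOSGA033729 and BGIOSGA013093 were named after their values were seen. BGIOSGA032260, with the lowest remaining share in DC90, was not picked by these rules either. The alternatives were pseudocounts of 0.1 and 5, scaling by median-of-ratios factors or to equal FPKM sums, other FPKM and fold limits, other limits on the 0 h line ratio, and, chosen after seeing the data, minimum reads of 20 or 100 per library. Python 3.11.15, numpy 2.4.6, pandas 2.3.3 and scipy 1.17.1 were used.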

Additional observations from a re-analysis of the deposited data

Results flagged for a closer look

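FPKM moved in opposite directions in the lines, higher at 36 h in DC90 and lower in 9311, in 14 of the 108 members, and this difference was not tested because each line has 1 library per time. The response in DC90 was 0.66 in BGIOSGA012309, 0.55 in BGIOSGA010583, 0.37 in BGIOSGA023108 and 0.32 in BGIOSGA016415, while their responses in 9311 were -1.07, -1.23, -1.22 and -2.19.

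EPlOING identifiers were outside the choice of members. Of the 839 with a highest FPKM of at least 10, 27 met the same conditions. Their median length was 65 bases, the median of their deepest libraries was 12 reads, and 8 of them had at least 20 reads in some library.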

How the results depend on the processing

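The number of members, 108, rested on the limits chosen. It was 53 with a pseudocount of 5, 168 with a highest FPKM of at least 5, 65 with at least 20, 59 with a 0 h line ratio under 0.5 in size, 10 with a fold limit of 3 and 54 with at least 100 reads per library. It was 127 with a pseudocount of 0.1, 93 with median-of-ratios factors and 135 with equal FPKM sums, which kept 101, 90 and 102 of the 108. Equal sums moved the median DC90 response of all 15534 identifiers by 0.10, to 0.16. A DC90 response within 0.5 of 0 was reported in 58 of the 108 members. It was found in 32 of 53 with a pseudocount of 5 and in 97 of 168 with FPKM of at least 5. With FPKM of at least 20 it was found in 36 of 65, with the narrower 0 h limit in 32 of 59. With the fold limit of 3 it was found in 5 of 10. A line ratio of at least 1 at 36 h was reported in 36 of the 108 members. It was found in 9 of 53 with a pseudocount of 5 and in 57 of 168 with FPKM of at least 5. With FPKM of at least 20 it was found in 20 of 65, with the fold limit of 3 in 7 of 10. With at least 100 reads it was found in 15 of 54. A DC90 response of at least 1 occurred in 1 member with FPKM of at least 5 and in 0 otherwise. Genes lowered in DC90 alone numbered 50 with a pseudocount of 5, 53 with FPKM of at least 20, 44 with the narrower 0 h limit, 14 with the fold limit of 3 and 31 with at least 100 reads. With median-of-ratios factors they were 93, as many as the members then were. Genes raised in 9311 alone numbered 94, 33 and 70 with the narrower 0 h limit, the fold limit of 3 and at least 100 reads. The median difference of responses over the 108 members ran from 0.96 with a pseudocount of 5 to 1.31 with one of 0.1. The 29 members picked by fixed rules kept a positive difference of responses under both pseudocounts and both scalings, from 0.62 to 2.86. Other members named here were not in this comparison. The cause of these shifts was not tested. No paired analysis was possible because each group has 1 library. Depth limits members with few reads, and variation between pools could not be measured.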
